A study of Mus musculus with 23 samples.

Results

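The tendon and cartilage matrix genes described here are Tnmd, Scx, Mkx, Fmod, Thbs4, Comp, Chad, Kera, Cilp and Cilp2, which are 10 of the 24062 gene symbols in a table of RNA-seq read counts. They were chosen by symbol, with earlier results of these data known, and all 10 were found in the table. The libraries came from 2 whole tissues of mice with mutant Bub1b, the gene of the mitotic checkpoint protein BubR1, and of wild-type mice. The HL1002P mice carried a hypomorphic allele (H) and an L1002P missense allele, the HH mice carried the hypomorphic allele on both chromosomes, and the WT mice carried neither. All were of mixed 129Sve/C57BL/6 background and 8 to 10 months old. The gastrocnemius, a calf muscle, gave 4 HL1002P, 3 HH and 4 WT libraries of 34.1 to 55.3 M counts. Fat, called IAT in the labels, gave 4 libraries of each genotype with 22.6 to 58.8 M counts. The labels number the libraries of a group as separate samples and do not say which muscle and fat samples came from the same mouse, so p-values measure the spread between these samples.

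Tendon cells lay down aligned collagen fibrils whose diameter and spacing are set by small leucine-rich proteins, and oligomeric glycoproteins of the thrombospondin family bridge the fibrils. Scx, a basic helix-loop-helix factor, marks tendon progenitors, Mkx is a homeobox factor needed for collagen production in tendon, and Tnmd is a membrane glycoprotein of mature tendon cells. Several of the matrix proteins are shared with cartilage. The gastrocnemius ends in the Achilles tendon, and muscle fibres meet tendon at myotendinous junctions within the muscle. How much tendon each muscle sample held is not given in the labels, and in whole tissue fewer cells of a type and less RNA per cell cannot be told apart.

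The sequence just before the annotated start is shown for the 4 of these genes that passed a test of a mutant against WT, Cilp in both tissues and Fmod, Thbs4 and Chad in fat. Each line gives the 250 bases before the start, 5′ to 3′ on the strand of the gene, from RefSeq on GRCm38.p6. Capitals mark CANNTG, the E-box class of sites that basic helix-loop-helix factors such as Scx bind, and a match on one strand is also a match on the other.
Cilp: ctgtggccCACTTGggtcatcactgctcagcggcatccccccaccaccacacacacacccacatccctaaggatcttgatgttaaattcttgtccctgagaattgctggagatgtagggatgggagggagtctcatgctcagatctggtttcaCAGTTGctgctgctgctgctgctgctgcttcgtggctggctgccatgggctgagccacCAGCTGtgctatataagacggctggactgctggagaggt
Fmod: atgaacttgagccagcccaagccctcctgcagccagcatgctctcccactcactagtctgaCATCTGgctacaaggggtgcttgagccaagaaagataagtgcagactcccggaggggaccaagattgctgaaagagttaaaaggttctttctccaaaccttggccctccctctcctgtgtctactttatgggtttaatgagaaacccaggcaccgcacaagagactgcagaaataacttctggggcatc
Thbs4: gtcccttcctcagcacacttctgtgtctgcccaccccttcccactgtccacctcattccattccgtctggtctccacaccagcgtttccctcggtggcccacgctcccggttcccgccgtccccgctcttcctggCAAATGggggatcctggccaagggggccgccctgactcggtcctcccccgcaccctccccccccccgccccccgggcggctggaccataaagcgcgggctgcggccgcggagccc
Chad: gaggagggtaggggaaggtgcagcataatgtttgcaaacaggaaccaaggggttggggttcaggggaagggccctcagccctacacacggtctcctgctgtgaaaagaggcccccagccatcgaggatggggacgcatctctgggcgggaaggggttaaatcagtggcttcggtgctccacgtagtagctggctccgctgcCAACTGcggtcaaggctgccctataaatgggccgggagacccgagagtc

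The Cilp stretch is chr9:65264930-65265179 on the plus strand and holds 3 matches, which begin 242, 97 and 39 bases before the start. Fmod (chr1:134037004-134037253, plus strand) has 1 match, 189 bases before its start. Thbs4 (chr13:92794819-92795068, minus strand) has 1 match at 115 bases and Chad (chr11:94564797-94565046, plus strand) has 1 match at 49 bases. Among 32851 RefSeq promoters of the same length, 66.2% hold at least 1 CANNTG and 12.2% hold at least 3. The match in Fmod reads CATCTG on the strand of the gene, which is CAGATG on the opposite strand, and 14.4% of those promoters hold CAGATG on one strand or the other. A match is a run of letters and not a measured binding site.

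Both tissues carried their own defining genes. The summed level of 12 fast muscle fibre markers was 177401 to 259245 CPM (normalised read count, on TMM-scaled library sizes) over the muscle libraries, and that of 8 fat cell markers was 11493 to 44782 CPM over the fat libraries. Bub1b itself was at 0.181 to 0.273 CPM in HL1002P muscle, 0.326 to 0.520 CPM in HH muscle and 0.726 to 0.952 CPM in WT muscle. In fat it was at 6.12 to 22.1 CPM in HL1002P, 5.96 to 14.3 CPM in HH and 7.08 to 11.6 CPM in WT libraries, so the groups overlapped there.

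In muscle, Cilp was the one gene of the 10 that passed the test, with 5.23-fold higher levels in HH than in WT libraries. The genes for the fibril-binding leucine-rich proteins Fmod and Chad pointed the other way, with every HH library below every WT library and adjusted p just over the threshold. Of the other tendon and cartilage genes listed, 0 passed in muscle in either mutant against WT. Of all tested genes 0.117% passed in HL1002P and 0.377% in HH. The plot of muscle levels shows the spread behind each statement.

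**Figure D1:**
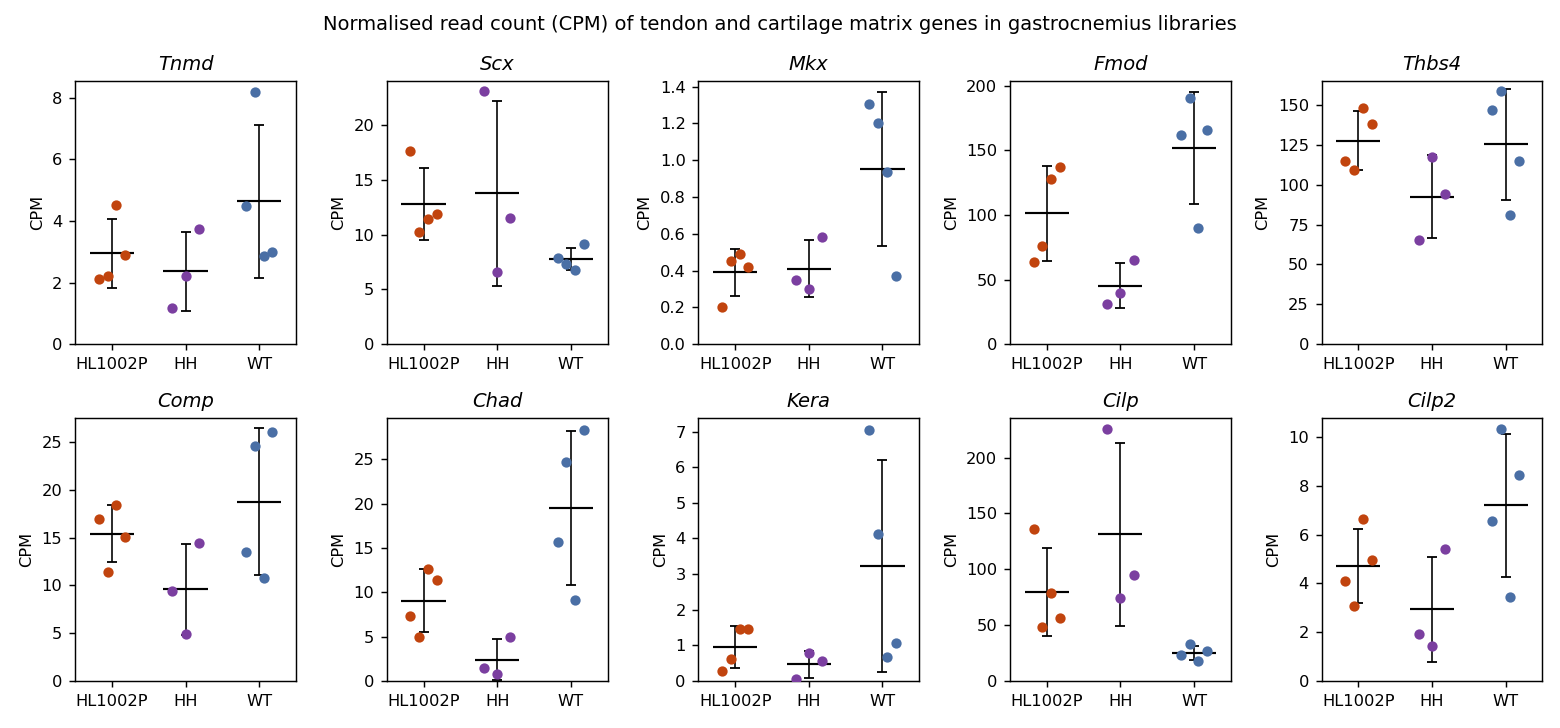
Normalised read count in CPM (y axis, linear) of each of the 10 genes in gastrocnemius, with 1 point per library for 4 HL1002P, 3 HH and 4 WT libraries, the mean as a line and the SD as bars. Cilp sits at 48.0 to 136 CPM in HL1002P and 74.4 to 225 CPM in HH libraries, above the 17.9 to 33.0 CPM of the WT libraries, and Fmod and Chad sit lowest in HH.

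Cilp encodes cartilage intermediate layer protein, a secreted protein of the cartilage matrix known to bind TGF-beta. It lies on chromosome 9 at 65265180 to 65280605 (GRCm38, plus strand). Its level was 136, 48.0, 79.0 and 56.3 CPM in the HL1002P muscle libraries, 225, 74.4 and 94.5 CPM in the HH libraries, and 22.8, 33.0, 17.9 and 26.8 CPM in the WT libraries. Neither mutant overlapped WT, and HL1002P 1 and HH 1 were the highest libraries of their groups. The log2 fold change was 2.39 ± 0.41 (SE) in HH against WT (edgeR quasi-likelihood test, Benjamini-Hochberg adjusted p = 0.0315). In HL1002P against WT it was 1.66 ± 0.39 and did not pass (edgeR adjusted p = 0.194), although all 4 libraries were above the WT range. In HH against WT 1 of the 10 genes was called, where 0.377% of 14580 tested genes were, 0.199% as higher. In HL1002P against WT 0 of 10 passed in edgeR, where 0.117% of all genes were called. In that test 5 of 10 had an unadjusted p under 0.05, where 10.5% of all genes did. DESeq2 called 1 of the 10 (Cilp, adjusted p = 0.0378), where it called 188 genes in all, and limma voom called 0 of the 10.

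The 2 mutant libraries with the most Cilp also stood apart in genes outside the set. Gdf5, a growth factor of the BMP family known from joint and tendon formation, was at 18.3 CPM in HL1002P 1 and 15.4 CPM in HH 1, against 1.22 to 3.48 CPM in the other mutant muscle libraries and 0.140 to 0.648 CPM in the WT libraries. Krt18, a keratin of simple epithelia, was at 110.4 and 33.3 CPM in the same 2 libraries, at 5.28 to 9.07 CPM in the other mutant libraries and at 0.467 to 0.907 CPM in WT. The 7 epithelial markers, Krt18 among them, summed to 157 CPM in HL1002P 1 and 49.3 CPM in HH 1, to 7.54 to 12.5 CPM in the other mutant muscle libraries and to 1.98 to 2.81 CPM in WT. Of the 7, 3 had enough counts to test, and all 3 had positive estimates in both mutants. Their median log2 fold change was 5.66 in HL1002P and 4.63 in HH, with 0 past the test in edgeR, where 0.117% and 0.377% of all genes passed. Epcam, low in all groups, averaged 0.0586 CPM in HL1002P, 0.0699 CPM in HH and 0.158 CPM in WT muscle. The part of epithelial cells in the level of Cilp was not tested. With both libraries left out, a setting chosen after seeing the data, the Cilp difference was 1.75 in HH against WT (edgeR adjusted p = 0.0215) and 1.28 in HL1002P against WT (adjusted p = 0.105). The HH call was lost when WT 1, WT 2, WT 3, WT 4, HH 1 or HH 3 was left out (log2 fold change 1.75 to 2.57, edgeR adjusted p 0.0546 to 0.0930) and held without HH 2 (2.67, adjusted p = 0.0228).

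Cilp2, the close relative of Cilp, did not follow it. Its muscle level was 4.12, 3.09, 6.66 and 4.98 CPM in HL1002P, 1.93, 1.45 and 5.42 CPM in HH, and 6.57, 10.3, 3.45 and 8.47 CPM in WT libraries. The groups overlapped, and WT 3 lay below 3 of the 4 HL1002P libraries. Against WT, the log2 fold change was -0.61 ± 0.42 in HL1002P and -1.30 ± 0.47 in HH (edgeR adjusted p = 0.637 and 0.206). Cilp was thus above WT in both mutants while the estimates of Cilp2 were negative in both.

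Fmod encodes fibromodulin, a small leucine-rich proteoglycan that binds type I collagen and is required for normal tendon fibrils in mice. It is on chromosome 1 at 134037254 to 134048277 (plus strand). Its muscle level was 63.7, 76.3, 128 and 137 CPM in HL1002P libraries, 31.1, 39.7 and 65.0 CPM in HH libraries, and 162, 190.5, 89.8 and 166 CPM in WT libraries. All HH libraries lay below all WT libraries, while HL1002P spanned the gap and met the lowest WT library, WT 3. On the log2 scale the difference was -1.75 ± 0.34 in HH against WT (edgeR adjusted p = 0.0553) and -0.59 ± 0.30 in HL1002P against WT (adjusted p = 0.523). In HL1002P against HH it was 1.16 ± 0.34, with all 4 HL1002P libraries above the HH mean and ranges that met between 63.7 and 65.0 CPM (edgeR adjusted p = 0.868).

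Chad encodes chondroadherin, a leucine-rich protein of cartilage that binds integrins and collagen. It lies on chromosome 11 at 94565047 to 94569127 (plus strand). It was at 7.37, 4.96, 12.6 and 11.3 CPM in HL1002P muscle, 1.44, 0.775 and 5.01 CPM in HH muscle, and 15.7, 24.7, 9.13 and 28.3 CPM in WT muscle. The HH libraries were the lowest, with HH 3 just above the lowest HL1002P library. The gene's log2 fold change was -3.02 ± 0.61 in HH (edgeR adjusted p = 0.0567) and -1.10 ± 0.50 in HL1002P (adjusted p = 0.468). Between the mutants it was 1.92 ± 0.58, HL1002P against HH (edgeR adjusted p = 0.906). Fmod and Chad passed in HH against WT with DESeq2 (adjusted p = 1.61e-05 and 0.000616), with a sex term (0.0259 and 0.0205) and with no filter on low counts (0.0383 and 0.0414). With the replicate number as a block they also passed (0.0393 and 0.0360). The labels do not tie the number to a litter or day, but in muscle libraries 1 and 2 of each group read as male and libraries 3 and 4 as female, so the block and the sex term share that split. Over all 9 alternative settings Fmod passed in 5 and Chad in 4. With 1 library left out, Fmod passed in 0 of 7 fits (edgeR adjusted p 0.0501 to 0.174). Chad passed in 1 of 7, without HH 3 (-4.14, edgeR adjusted p = 0.0229), with adjusted p up to 0.179. Without HL1002P 1 and HH 1 the differences were -1.54 for Fmod and -2.76 for Chad (edgeR adjusted p = 0.116 and 0.176).

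Kera encodes keratocan, a leucine-rich proteoglycan best known from the cornea and also present in tendon. In muscle it had 10, 27, 62 and 80 counts in HL1002P, 2, 40 and 26 counts in HH and 318, 236, 26 and 46 counts in WT libraries. WT 1 and WT 2 stood far above the other 9 libraries, and WT 3 and WT 4 were within the mutant range. Relative to WT its log2 fold change was -1.75 ± 0.78 in HL1002P and -2.76 ± 0.92 in HH (edgeR adjusted p = 0.465 and 0.174).

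Of the thrombospondin family members, Thbs4 was among the most abundant genes of the set and had the estimates closest to 0 against WT. Its product is a matrix protein of tendon and of muscle at the junction with tendon. It was at 115, 109, 148 and 138 CPM in HL1002P, 65.3, 118 and 94.4 CPM in HH and 147, 159, 80.8 and 115 CPM in WT muscle. The log2 fold change was 0.02 ± 0.22 in HL1002P and -0.44 ± 0.24 in HH (edgeR adjusted p = 0.979 and 0.377), and all 3 groups overlapped.

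Comp, cartilage oligomeric matrix protein, organises collagen fibrils in cartilage and tendon. Its muscle level was 16.9, 11.4, 18.4 and 15.0 CPM in HL1002P, 9.45, 4.91 and 14.4 CPM in HH and 13.5, 24.6, 10.8 and 26.1 CPM in WT libraries. The WT libraries held both the 2 highest values and 1 of the lower ones. On the log2 scale the difference from WT was -0.28 ± 0.33 in HL1002P and -0.97 ± 0.37 in HH (edgeR adjusted p = 0.808 and 0.221).

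The 3 genes that mark the tendon cells themselves did not move as 1 group. Scx was at 17.7, 10.2, 11.4 and 11.9 CPM in HL1002P, 23.1, 6.62 and 11.6 CPM in HH and 7.88, 7.28, 6.79 and 9.19 CPM in WT muscle. Every HL1002P library was above the WT range, and HH 2 was below it. The gene's log2 fold change was 0.72 ± 0.31 in HL1002P and 0.82 ± 0.33 in HH (edgeR adjusted p = 0.459 and 0.244). As with Cilp, HL1002P 1 and HH 1 were the highest libraries, and without both the HH estimate was 0.22 (edgeR adjusted p = 0.733). Scx lies within Bop1, on the other strand and with no exon of Bop1 overlapping its exons, and the library kit does not keep the strand, so reads of the 2 genes cannot be told apart by strand. Bop1 itself averaged 43.7 CPM in HL1002P, 45.9 CPM in HH and 36.9 CPM in WT muscle.

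Mkx was low in all libraries, with 7, 20, 21 and 23 counts in HL1002P, 15, 15 and 27 counts in HH and 59, 69, 36 and 16 counts in WT muscle. WT 4 was inside the mutant range and the other 3 WT libraries were above it. Relative to WT its log2 fold change was -1.27 ± 0.43 in HL1002P and -1.21 ± 0.48 in HH (edgeR adjusted p = 0.349 and 0.236).

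Tnmd was at 2.13, 2.21, 4.53 and 2.91 CPM in HL1002P, 1.16, 2.21 and 3.73 CPM in HH and 4.49, 8.19, 2.88 and 3.0 CPM in WT muscle. Only WT 2 exceeded all mutant libraries. Against WT, the log2 fold change was -0.66 ± 0.41 in HL1002P and -0.97 ± 0.45 in HH (edgeR adjusted p = 0.602 and 0.307).

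**Figure D2:**
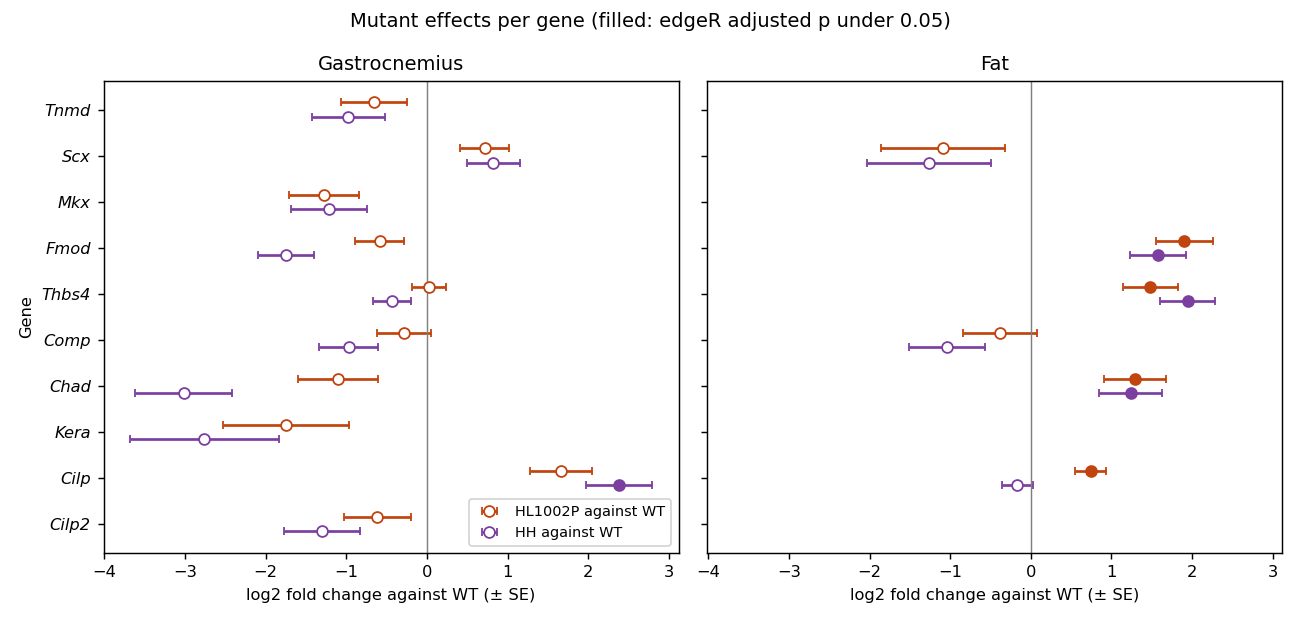
Log2 fold change (x axis, with SE bars) of each gene (y axis) in HL1002P and HH against WT, in gastrocnemius (left) and fat (right), filled where the edgeR adjusted p was under 0.05. In muscle 7 of 10 estimates were negative in HL1002P and 8 of 10 in HH, with Cilp and Scx positive in both, while Fmod, Thbs4 and Chad were positive and filled in fat.

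Across the set, 7 of 10 estimates were negative in HL1002P against WT muscle and 8 of 10 in HH, where 49.4% and 47.9% of all tested genes were negative. The median log2 fold change of the 10 genes was -0.60 in HL1002P and -1.09 in HH, against 0.00 and 0.01 over all tested genes. Of the 10, 8 had an unadjusted p under 0.05 in HH against WT, where 16.6% of all genes did, and 5 did in HL1002P, where 10.5% did. These 2 comparisons share their WT libraries. The genes were chosen with earlier results of these data known, so these shares and medians describe the set and are no independent support. Groups did not overlap for 2 genes in HL1002P (Cilp and Scx, both above WT), where 5.66% of all genes did not overlap and 3.09% lay above. In HH they did not overlap for 3 genes (Cilp above, Fmod and Chad below), where 13.9% of all genes did not, 7.38% above and 6.56% below.

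HL1002P and HH muscle did not differ past the threshold for any of the 10 genes. In that comparison 0 of 10 passed in edgeR, DESeq2 and limma voom. In edgeR 2 had an unadjusted p under 0.05 (Fmod and Chad), and 0.0206% of all genes were called. The groups overlapped for all 10 genes, where 5.37% of all genes did not overlap. Of the 10 estimates, 7 were positive, with a median of 0.57 against 0.00 over all genes. The smallest estimates were -0.06 ± 0.48 for Mkx and -0.11 ± 0.33 for Scx, and the signs of both turned in some alternative settings.

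**Figure D3:**
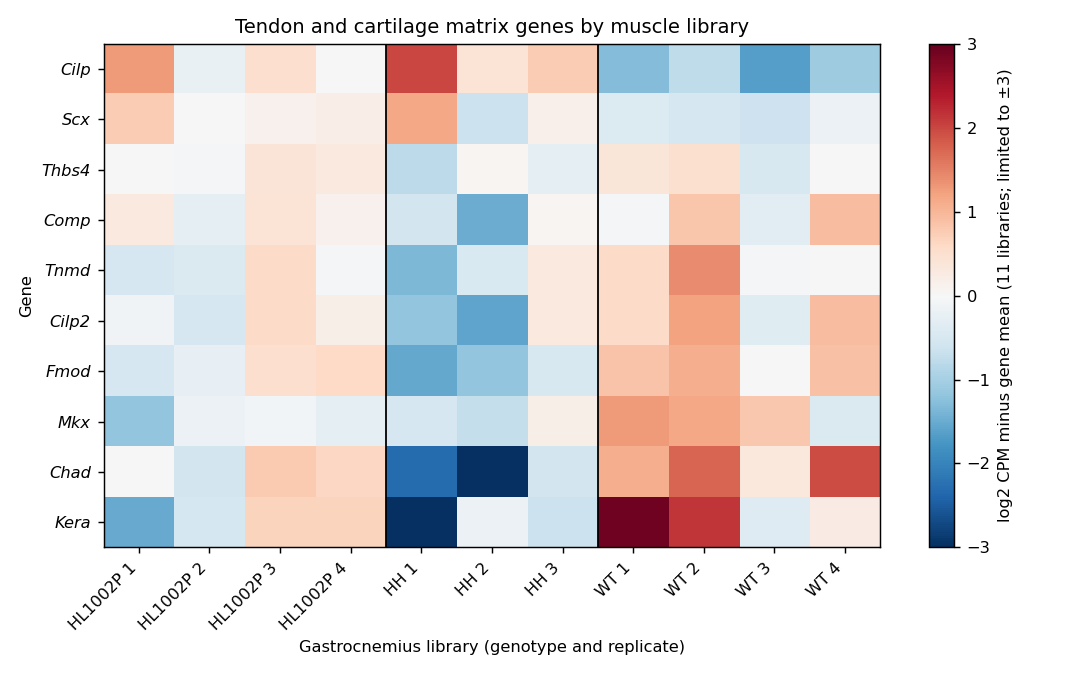
Log2 CPM of each gene (rows) in each gastrocnemius library (columns, HL1002P then HH then WT), minus the mean of that gene over the 11 libraries, with the colour limited to 3 in each direction. Fmod, Chad and Kera are below their means in the HH columns, Kera only slightly so in HH 2. Cilp is higher in every mutant column than in every WT column, but is close to its mean in HL1002P 2 and HL1002P 4. WT 3 is the lowest WT column for 9 of the 10 genes.

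Some libraries ranked high or low in their group for many of the genes. WT 3 was the lowest WT muscle library for 9 of the 10 genes, all but Mkx, and WT 2 was the highest for 5. In HL1002P, library 3 was the highest for 6 genes and library 2 the lowest for 6. In HH, library 3 was the highest for 6 genes, and libraries 1 and 2 shared the lowest values. Slow fibre markers, which sum to 6775 to 12693 CPM in HL1002P muscle, were low in HH 2 (1053 CPM, against 6630 and 7787 CPM in the other HH libraries) and in WT 1 (1529 CPM, against 9083 to 11258 CPM in the other WT libraries). Bone cell markers did not separate the groups, with sums of 12.8 to 17.0 CPM in HL1002P, 12.7 to 16.8 CPM in HH and 12.2 to 19.1 CPM in WT muscle. Lymphocyte markers summed to at most 3.76 CPM in any muscle library. Macrophage markers summed to 98.9 to 282 CPM in HL1002P, 119 to 158 CPM in HH and 38.2 to 127 CPM in WT muscle. All 7 of 7 had positive estimates in both mutants with 0 past the test in edgeR, where 0.117% and 0.377% of all genes passed. Their part in the values of the 10 genes was not tested.

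Per kilobase of exon, the order of the mean levels of the 10 genes in muscle was as follows. In HL1002P the 3 highest means were Thbs4 at 38.7, Fmod at 30.6 and Cilp at 18.8 CPM per kb, with the range of Thbs4 overlapping that of Fmod and the range of Fmod overlapping that of Cilp. In HH they were Cilp at 30.9, Thbs4 at 28.1 and Fmod at 13.7 CPM per kb. In WT, Fmod at 46.0 and Thbs4 at 38.1 CPM per kb led, with overlapping ranges, then Chad at 11.6, Comp at 6.32, Cilp at 5.91, Scx at 3.88, Tnmd at 3.43, Cilp2 at 1.67, Kera at 1.41 and Mkx at 0.233 CPM per kb. In WT the range of each gene overlapped that of the next in this order except between Thbs4 and Chad. By its mean Cilp was at rank 3 in HL1002P, 1 in HH and 5 in WT, and in each group its range overlapped that of the gene ranked just above or below it.

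Other genes of tendon and cartilage were taken from 5 lists. In muscle 0 genes of these lists passed in edgeR in either mutant against WT, where 0.117% (HL1002P) and 0.377% (HH) of all genes did. Of 10 tested small leucine-rich proteoglycans beyond the set, the median log2 fold change was 0.22 in HL1002P and -0.01 in HH, and 1 and 2 had an unadjusted p under 0.05. Of 16 tendon collagens and crosslinking enzymes it was 0.15 and -0.16 (0 and 2 genes), and of 9 thrombospondins and other oligomeric proteins 0.14 and -0.41 (3 and 4 genes). For 20 signals and regulators it was 0.01 and 0.10 (3 and 8 genes), and for 13 cartilage cell genes 0.11 and 0.14 (3 genes in each). Of all tested genes 10.5% (HL1002P) and 16.6% (HH) had an unadjusted p under 0.05. Each of these medians of the lists was closer to 0 than that of the 10 genes. The 10 genes and the lists were chosen with earlier results of these data known, so this contrast is no independent support.

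The genes with the smallest p in those lists are given as values, since they did not pass. Bgn, biglycan, was at 93.0 to 131 CPM in HL1002P, 104 to 142 CPM in HH and 56.5 to 89.3 CPM in WT muscle, with log2 fold changes of 0.64 ± 0.16 and 0.72 ± 0.17 (edgeR adjusted p = 0.231 and 0.0754). Thbs3, a thrombospondin like Thbs4 and Comp, was at 11.9 to 17.2 CPM in HL1002P, 10.8 to 18.4 CPM in HH and 5.33 to 9.16 CPM in WT, with 0.96 ± 0.20 and 0.91 ± 0.21 (adjusted p = 0.132 and 0.0754). Neither Bgn nor Thbs3 overlapped WT in either mutant. Col22a1, a collagen of the myotendinous junction, was at -0.68 ± 0.15 on the log2 scale in HH against WT (edgeR adjusted p = 0.0642), with all HH libraries below WT. Gdf5 had log2 fold changes of 4.16 ± 1.03 in HL1002P and 4.52 ± 1.06 in HH (edgeR adjusted p = 0.236 and 0.0774), from 57 counts over the 4 WT libraries.

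Likeness between genes was measured as the root mean square difference of their log2 CPM over the 11 muscle libraries, each centred on its own mean, and is a description of libraries that share their depth and tissue. Cilp2 was closest to 2 other genes of the set, Comp (0.33) and Fmod (0.37), where its own SD over the libraries was 0.82. Comp was closest to Mfap4 (0.32) and then to Cilp2, and Fmod was closest to Cilp2. Chad was nearest to Chrna2, Fmod and Cilp2 (0.78 to 0.79, own SD 1.51). Tnmd was nearest to Col11a1 (0.30), Abi3bp (0.31) and Col15a1 (0.32), Cilp to Artn, Tubb6 and Lpin2 (0.35 to 0.39), and Scx to Qsox1 (0.19). Another gene of the set was among the 3 nearest for Fmod, Comp, Chad and Cilp2, and for none of Tnmd, Scx, Mkx, Thbs4, Kera and Cilp.

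Fat gave another picture. Fmod, Thbs4 and Chad were higher in both mutants than in WT fat, 2.36- to 3.85-fold, while Scx and Comp did not pass the test. In HL1002P against WT, 4 of the 6 genes with enough counts to test were called, all higher, where 31.8% of 16266 tested genes were called and 17.3% as higher. In HH against WT 3 of 6 were called, all higher, where 20.8% of all genes were called and 12.3% as higher. Tnmd, Mkx, Kera and Cilp2 were removed by the filter on low counts, with at most 102 counts over the 4 libraries of any fat group. The 6 that were tested had to reach the count minimum in at least 1 group, so their counts say nothing of all 10.

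**Figure D4:**
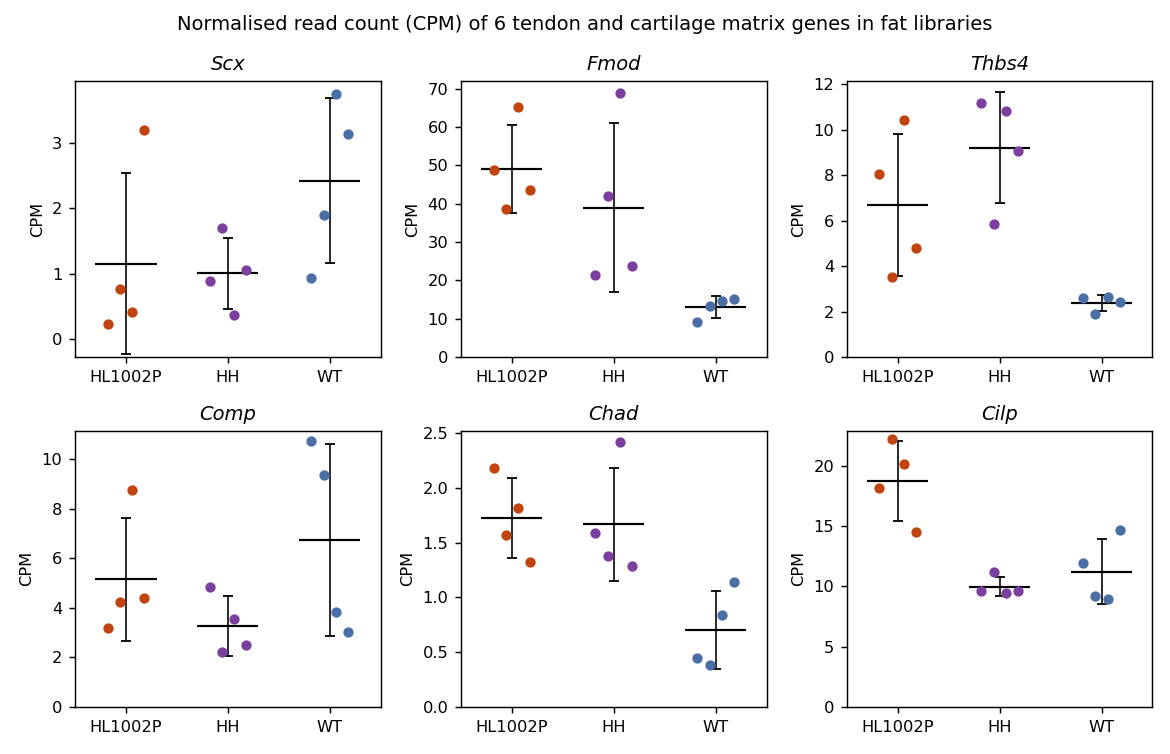
Normalised read count in CPM (y axis, linear) of the 6 genes tested in fat, with 1 point per library for 4 HL1002P, 4 HH and 4 WT libraries, the mean as a line and the SD as bars. All HL1002P and HH libraries lie above the WT libraries for Fmod, Thbs4 and Chad, and the groups overlap for Scx and Comp.

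Fmod was at 48.8, 38.6, 65.3 and 43.5 CPM in HL1002P fat, 21.4, 41.9, 69.0 and 23.7 CPM in HH fat and 9.12, 13.4, 14.5 and 15.3 CPM in WT fat. Both mutants lay above WT with a gap, as they did for Thbs4 and Chad, where 27.5% of all genes did not overlap in HL1002P against WT fat (15.1% above) and 25.9% in HH (15% above). The log2 fold change was 1.91 ± 0.35 in HL1002P (edgeR adjusted p = 0.00785) and 1.57 ± 0.35 in HH (adjusted p = 0.0156), higher in 4 of 4 libraries of each. Both calls held when any 1 library was left out.

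Thbs4, on chromosome 13 at 92751590 to 92794818 (minus strand), was at 8.06, 3.51, 10.4 and 4.79 CPM in HL1002P, 11.2, 5.84, 10.8 and 9.05 CPM in HH and 2.61, 1.89, 2.65 and 2.41 CPM in WT fat. The WT libraries were close to each other and below all mutant libraries. The gene's log2 fold change was 1.48 ± 0.34 in HL1002P (edgeR adjusted p = 0.0123) and 1.94 ± 0.35 in HH (adjusted p = 0.0113), and both calls held without any 1 library.

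Chad was at 2.18, 1.57, 1.82 and 1.33 CPM in HL1002P, 1.59, 1.38, 2.42 and 1.29 CPM in HH and 0.443, 0.385, 0.840 and 1.14 CPM in WT fat. The lowest mutant library was just above the highest WT library. Relative to WT its log2 fold change was 1.29 ± 0.39 in HL1002P (edgeR adjusted p = 0.0286) and 1.24 ± 0.39 in HH (adjusted p = 0.0436). The HL1002P call was lost without WT 1, WT 2 or HL1002P 1, 2 or 3 (adjusted p 0.0584 to 0.0814), and the HH call without WT 1, WT 2 or HH 1, 2 or 3 (0.0532 to 0.126). The HH call was also lost with the replicate number as a block (1.27, adjusted p = 0.0527), with a sex term (0.0575), with no filter (0.0552) and with HH and WT libraries alone (0.0743). Chad lies within Acsf2 on the other strand, with no overlapping exon, and Acsf2 averaged 62.8 CPM in HL1002P, 70.6 CPM in HH and 64.2 CPM in WT fat.

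Cilp was at 18.1, 22.2, 20.2 and 14.5 CPM in HL1002P, 9.61, 11.2, 9.47 and 9.62 CPM in HH and 12, 9.17, 8.99 and 14.7 CPM in WT fat. It was higher in HL1002P than in WT, by 0.74 ± 0.19 on the log2 scale (edgeR adjusted p = 0.0171), although HL1002P 4 met WT 4. The call was lost without HL1002P 2 (0.70, adjusted p = 0.0553). In HH against WT the log2 fold change was -0.17 ± 0.19 (edgeR adjusted p = 0.523). In HL1002P against HH it was 0.91 ± 0.19, with every HL1002P library above every HH library, where 2.13% of all genes did not overlap and 1.14% lay above, and did not pass (edgeR adjusted p = 0.839; DESeq2 adjusted p = 0.00805). In that comparison 0 of the 6 genes passed in edgeR, where 0% of all genes were called. In edgeR 1 of the 6 (Cilp) had an unadjusted p under 0.05, where 3.29% of all genes did. DESeq2 called 1 of the 6, where it called 20 genes in all, and limma voom called 0 of the 6.

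Comp and Scx had negative estimates in fat. Comp was at 3.18, 4.24, 8.76 and 4.39 CPM in HL1002P, 4.84, 2.21, 3.55 and 2.48 CPM in HH and 10.7, 9.36, 3.81 and 3.01 CPM in WT fat, with log2 fold changes of -0.38 ± 0.46 and -1.04 ± 0.47 (edgeR adjusted p = 0.532 and 0.123). Scx was at 0.229, 0.767, 0.410 and 3.20 CPM in HL1002P, 0.886, 1.69, 0.375 and 1.06 CPM in HH and 0.929, 1.89, 3.75 and 3.13 CPM in WT fat, with -1.09 ± 0.77 and -1.26 ± 0.77 (edgeR adjusted p = 0.282 and 0.236). HL1002P 4 stood above its group for Scx, and without it the HL1002P difference was -2.29 (edgeR adjusted p = 0.0183). Epithelial markers summed to 998 CPM in HL1002P 4 against 12.1 to 87.4 CPM in the other HL1002P fat libraries, and to 1516 and 1600 CPM in WT 3 and WT 4 against 2.08 and 3.11 CPM in WT 1 and WT 2. Scx was highest in HL1002P 4 and WT 3 within their groups, as was Mkx, which had 10 and 62 counts there. In HH, HH 2 and HH 4 had the most Scx and held 676 and 442 CPM of epithelial markers. HH 1 and HH 3 held 9.28 and 29.5 CPM. The fat libraries that read as female were WT 3, WT 4, HL1002P 4 and HH 4. In WT fat the split in epithelial markers was thus also a split by sex. WT 1 and WT 2, read as male, also had the most Comp of their group. The part of other cell types in these values was not tested.

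Lymphocyte markers, like Fmod, Thbs4 and Chad, were higher in the fat of both mutants than in WT fat. Within groups, the library order by gene matched that by marker CPM for Fmod in HH and differed in the other cases. The library with the most marker CPM in HH, HH 3, had the most Fmod and Chad of its group. That of HL1002P, HL1002P 2, had the least Fmod and Thbs4, and that of WT, WT 2, the least Thbs4 and Chad. The library with the least marker CPM had the least Fmod in HH (HH 1) and WT (WT 1). In HL1002P that library, HL1002P 4, had the least Chad. HH 1 also had the most Thbs4 of its group. The 10 markers summed to 1146 to 3155 CPM in HL1002P, 1412 to 2655 CPM in HH and 49.4 to 579 CPM in WT fat. Of the 10, 10 were called higher in HL1002P and 7 in HH, where 17.3% and 12.3% of all genes were. Of these markers, Cd79a, part of the B cell receptor, averaged 584 CPM in HL1002P, 433 CPM in HH and 66.0 CPM in WT fat. Fat cell markers summed to 11493 to 22508 CPM in HL1002P, 13229 to 31498 CPM in HH and 22254 to 44782 CPM in WT, and fibroblast markers to 5662 to 14479 CPM in HL1002P, 5139 to 21151 CPM in HH and 13240 to 22788 CPM in WT. In muscle the lymphocyte markers summed to at most 3.76 CPM in any library. The part of lymphocytes, fat cells and fibroblasts in the levels of Fmod, Thbs4 and Chad was not tested.

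**Figure D5:**
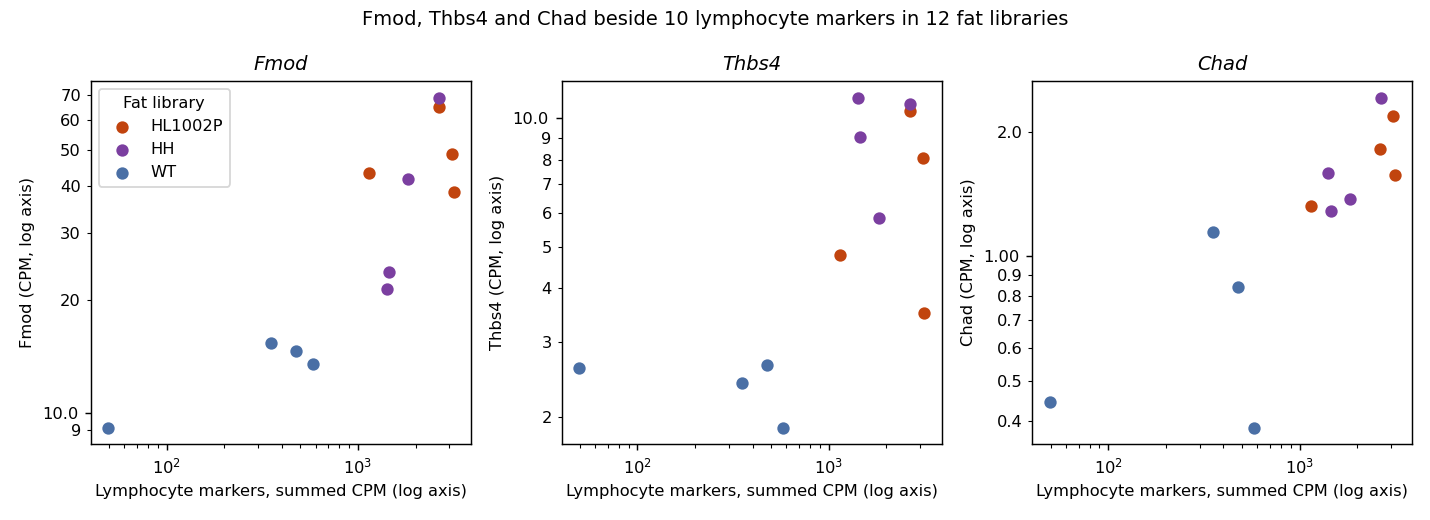
Level of Fmod, Thbs4 and Chad (y axes, CPM, log axes) against the summed CPM of 10 lymphocyte markers (x axis, log axis) in the 12 fat libraries, 1 point per library. The HL1002P and HH libraries lie to the right (1146 to 3155 CPM of markers) and above the WT libraries (49.4 to 579 CPM).

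Fast fibre markers were high in 3 fat libraries, with 7178 CPM in HL1002P 4, 17951 CPM in HH 1 and 19404 CPM in WT 3, against 46.4 to 1820 CPM in the other 9. With these 3 left out, a setting chosen after seeing the data, Fmod differed by 2.01 in HL1002P and 1.83 in HH against WT (edgeR adjusted p = 0.00455 and 0.0100) and Thbs4 by 1.66 and 1.89 (adjusted p = 0.0121 and 0.0117). Chad differed by 1.49 and 1.35 (edgeR adjusted p = 0.0365 and 0.0614), so its HH call was lost. In the same setting Scx fell by 2.06 in HL1002P on the log2 scale (edgeR adjusted p = 0.0381).

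Tendon collagens were lower in the fat of both mutants. Of 16 tendon collagens and crosslinking enzymes, 11 were called lower and 0 higher in HL1002P, and likewise in HH, where 14.5% and 8.59% of all genes were called lower. Their median log2 fold change was -1.56 in HL1002P and -1.60 in HH, against -0.07 and -0.06 over all tested genes. Among them, Col6a3, a chain of type VI collagen, fell by 1.73 ± 0.40 in HL1002P and by 1.63 ± 0.40 in HH on the log2 scale (edgeR adjusted p = 0.0128 and 0.0212). Of 14 small leucine-rich proteoglycans beyond the set, 7 were lower and 1 higher in HL1002P, and 1 lower and 1 higher in HH. The higher one in both was Podnl1, a relative of podocan (1.45 ± 0.35 and 1.94 ± 0.35, edgeR adjusted p = 0.0137 and 0.0113). Bgn fell by 0.70 ± 0.20 in HL1002P on the log2 scale (adjusted p = 0.0255).

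Of all tested genes in fat, 17.3% were called higher and 14.5% lower in HL1002P, and 12.3% higher and 8.59% lower in HH. Of 10 thrombospondins and other oligomeric proteins, 5 were lower in HL1002P and 3 in HH, with 0 higher. Sparc, a collagen-binding matricellular protein, fell by 2.51 ± 0.61 in HL1002P and by 2.48 ± 0.61 in HH on the log2 scale (edgeR adjusted p = 0.0143 and 0.0203). Thbs3, of the same family as Thbs4, fell by 0.77 ± 0.25 in HL1002P (adjusted p = 0.0353). Of 19 signals and regulators 1 was higher and 2 were lower in HL1002P, and 1 higher and 1 lower in HH. Of 10 cartilage cell genes 1 was higher and 2 lower in HL1002P, and 1 higher and 1 lower in HH. The higher one in both was Col11a2, a chain of a cartilage collagen (1.73 ± 0.41 and 1.87 ± 0.42, edgeR adjusted p = 0.0139 and 0.0159).

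The 3 nearest genes by the same measure over the 12 fat libraries were Pim2 (0.24), Osm and Sp110 for Fmod, H2-K2 (0.27), Far2 and Cd7 for Chad, and Prr22 (0.32), Mndal and Tssk1 for Thbs4. None of the 6 genes of the set tested in fat had another of them among its 3 nearest. Per kilobase of exon, Fmod led the set in all 3 fat groups, at 14.8 CPM per kb in HL1002P, 11.8 in HH and 3.96 in WT. Cilp followed in HL1002P (4.41 CPM per kb) and WT (2.63), and Thbs4 in HH (2.80).

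The difference between the muscle and the fat effect was tested directly, as an interaction in a fit of all 23 libraries. For HL1002P, 3 of the 10 genes passed, where 11.3% of 16863 genes did, 5.6% as lower. Their effect was lower in muscle than in fat, by -2.50 ± 0.50 for Fmod, -1.47 ± 0.42 for Thbs4 and -2.39 ± 0.68 for Chad on the log2 scale (edgeR adjusted p = 0.0122, 0.0336 and 0.0338). For HH, 4 of 10 passed, where 3.71% of all genes did, 1.73% as higher and 1.98% as lower. Fmod (-3.35 ± 0.54), Thbs4 (-2.39 ± 0.44) and Chad (-4.26 ± 0.74) again had the lower effect in muscle, and Cilp (2.52 ± 0.46) had the higher effect in muscle (edgeR adjusted p = 0.00815, 0.0155, 0.0112 and 0.0155). The Fmod difference in HL1002P and all 4 in HH held when any 1 library was left out. In HL1002P the Thbs4 call was lost in 9 and the Chad call in 10 of 16 such fits, with adjusted p up to 0.0804 and 0.0748. Both were also lost with limma voom (-1.30 for Thbs4 and -2.46 for Chad, adjusted p = 0.118 and 0.0773). The Thbs4 call was lost without WT 1 or 2 of either tissue, HL1002P 1, 2 or 4 of muscle and HL1002P 1 or 3 of fat, and its values there were -1.17 to -1.52. The Chad call was lost without WT 1, 2 or 4 or HL1002P 1 or 2 of muscle and WT 1 or 2 or HL1002P 1, 2 or 3 of fat, with values of -2.16 to -2.48.

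In WT mice the set was mostly higher in muscle than in fat. On 1 scale over all libraries, 9 of 10 genes were higher in WT muscle than in WT fat, where 73.5% of 16863 genes were called, 31.9% as higher and 41.6% as lower. The same 9 had every muscle library above every fat library, where 64.3% of all genes did not overlap and 29.7% lay above. Tnmd, Mkx, Kera and Cilp2, which had too few counts to test within fat, entered this fit through their counts in muscle, so the count of 9 says little of them. With a mean of at least 1 CPM required in each tissue those 4 were left out, and all 6 genes tested were called higher. Thbs4 averaged 199 ± 57.1 CPM in WT muscle and 1.60 ± 0.241 CPM in WT fat (SD, n = 4 each), a log2 difference of 6.95 ± 0.38 (edgeR adjusted p = 4.94e-12). Cilp2 averaged 11.4 ± 4.73 CPM in WT muscle and 0.0325 ± 0.0273 CPM in WT fat (8.30 ± 0.74, adjusted p = 5.70e-09), from 9 counts in fat. Fmod averaged 241 ± 70.2 CPM in WT muscle and 8.73 ± 1.81 CPM in WT fat (4.79 ± 0.41, adjusted p = 3.08e-09). The smallest difference that passed was that of Cilp, at 39.8 ± 10.4 CPM in WT muscle and 7.49 ± 1.87 CPM in WT fat (2.41 ± 0.33, adjusted p = 1.97e-06). Mkx did not pass, at 1.51 ± 0.671 CPM in WT muscle and 0.342 ± 0.371 CPM in WT fat (2.12 ± 1.01, edgeR adjusted p = 0.0649), with WT 3 and WT 4 of fat holding 100 of its 102 fat counts. Of the other lists, 8 of 14 proteoglycans, 13 of 16 collagens and 8 of 10 oligomeric proteins were lower in WT muscle than in WT fat, with 0, 1 and 0 higher. Of 20 signals and regulators 9 were higher and 9 lower, and of 15 cartilage cell genes 5 were higher and 4 lower.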

How the data were processed

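Polyadenylated RNA of 11 gastrocnemius and 12 fat libraries was sequenced, and the authors deposited raw read counts per gene symbol, 22.6 to 58.8 M per library. The submitters' processing notes name TopHat2 2.0.14, Bowtie2 2.2.6, featureCounts 1.4.6 and the build mm10. Which annotation, strand setting and rule for multi-mapping reads were used is not given in the sources used here. Each of the 23 count columns matched 1 sample title.

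The counts were analysed with edgeR 4.0.16 under R 4.3.3. TMM scaling, filterByExpr by group and the quasi-likelihood F test were used, with p adjusted by Benjamini-Hochberg over all tested genes and a threshold of 0.05. Genotype was the covariate and all libraries of a tissue entered 1 fit. Tissue differences of the mutant effects and WT muscle against WT fat came from 1 fit of all 23 libraries, which treats them as independent. Levels are CPM on TMM-scaled library sizes, log2 CPM had a prior count of 2, and gene lengths and positions came from GENCODE vM21. RefSeq promoters were found for 7 of the 10 genes. The genes and lists were chosen with earlier results of these data known. All 10 genes are named, and from each other list at most 4 genes past the test with the smallest p, or at most 2 where none passed.

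Same-numbered HL1002P and HH muscle libraries deviated together (r from 0.217 to 0.286 over genes, which are no replicates of each other). Each of HL1002P 1, 2 and 3 had its same-numbered HH library as its best match. The number also carries sex in muscle, so this does not show a pairing, and the main test used none. In HL1002P against HH muscle the replicate block changed no call of the 10 genes. In HH against WT muscle it added Fmod and Chad to the calls. In each comparison other than HL1002P against HH muscle some libraries had another number as their best match. The number was not taken to pair samples. In muscle it carries sex in all 3 groups, since libraries 1 and 2 read as male and libraries 3 and 4 as female. Sex, read from Xist and Y-linked genes, was female in 2 of 4 HL1002P, 1 of 3 HH and 2 of 4 WT muscle libraries. In fat it was female in 1 HL1002P (HL1002P 4), 1 HH (HH 4) and 2 WT libraries (WT 3 and WT 4). Alternatives were DESeq2 1.42.0, limma 3.58.1 voom, other filters and scaling, a sex term, the block, 2-group fits, each library left out and 2 settings chosen after seeing the data. The procedure was tested on simulated data. Errors cover the spread between libraries, and without molecular identifiers reads are not independent molecules.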

Additional observations from a re-analysis of the deposited data

Results flagged for a closer look

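Of 50 sets of 4 libraries of 1 gene and group, 1 held a library far from the others, and chance gives about 1 in 20. Cilp was at 11.2 CPM in HH 2 fat, against 9.47 to 9.62 CPM in the other 3 HH fat libraries.

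In 7 cases the effect of a mutant differed between the tissues by a test of the difference itself. In HL1002P the difference of muscle minus fat was -2.50 for Fmod, -1.47 for Thbs4 and -2.39 for Chad on the log2 scale. In HH it was -3.35 for Fmod, -2.39 for Thbs4, -4.26 for Chad and 2.52 for Cilp.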

How the results depend on the processing

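The 10 genes gave 1291 values under alternative settings, of which 1252 kept their direction. DESeq2 called more genes than edgeR: 188 in HL1002P and 653 in HH against WT muscle, 41 in HL1002P against HH muscle, 5210 in HH against WT fat, 20 in HL1002P against HH fat, and 3170 (HL1002P) and 1728 (HH) for the tissue difference. Of the 10 genes it called 1, 3 and 1 in HL1002P against WT muscle, HH against WT muscle and HL1002P against HH fat. Limma voom called 9 genes in HL1002P against WT muscle and 1251 (1 of the 10, with the Thbs4 and Chad calls lost) and 273 for the tissue difference in HL1002P and HH. In HL1002P against WT muscle a mean of at least 1 CPM gave 10 genes and a fit of those groups alone 8. In HH against WT muscle a sex term gave 225 genes, the replicate block 203 and those groups alone 85, with 3, 3 and 2 of the 10, and no filter gave 3 of the 10. The groups alone gave 1 gene in HL1002P against HH fat. Leaving out HL1002P 1 and HH 1 gave 5 genes in HL1002P against HH muscle, and leaving out HL1002P 4, HH 1 and WT 3 gave 5505 in HH against WT fat. The causes were not tested.

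With 1 library left out, the genes called ranged from 3 to 13 in HL1002P and 21 to 133 in HH against WT muscle, 3 to 7 in HL1002P against HH muscle, 2023 to 7018 in HL1002P and 829 to 4170 in HH against WT fat, 0 to 0 in HL1002P against HH fat, 349 to 4048 (HL1002P) and 63 to 1361 (HH) for the tissue difference, and 11848 to 12264 for WT muscle against WT fat. Of the 10 genes, 0 to 0, 0 to 1, 0 to 0, 2 to 6, 2 to 3, 0 to 0, 1 to 5, 4 to 5 and 9 to 10 were called in these comparisons.

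Of the 1291 values 39 changed sign, all of estimates near 0 or with wide errors that had not passed. For HL1002P against HH muscle, Scx was 0.057 with limma voom, 0.30 without HL1002P 1 and HH 1 and -0.44 to 0.49 with 1 library left out. There Mkx was 0.15 with the replicate block, 0.039 without HL1002P 1 and HH 1 and -0.25 to 0.28 with 1 library left out, and Tnmd was -0.0076 to 0.80. Thbs4 in HL1002P against WT muscle was -0.14 to 0.16 with 1 library left out. For HL1002P against HH fat, Scx was -0.54 with limma voom, -0.39 with the sex term, -0.39 with the replicate block, -1.15 without HL1002P 4, HH 1 and WT 3, and -1.08 to 0.58 with 1 library left out, and Chad was -0.080 to 0.30. The tissue difference of Comp was -0.093 (HL1002P) and -0.22 (HH) with limma voom, -0.011 (HH) with at least 1 CPM in each tissue, and -0.25 to 0.47 (HL1002P) and -0.38 to 0.34 (HH) with 1 library left out, and that of Kera in HL1002P was -1.30 to 0.089. Mkx and Kera in muscle rest on few counts, and 4 of the 10 genes had too few to test in fat.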
